A study of Mus musculus with 2 samples.

Results

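Among the CD45+ cells of mouse visceral adipose tissue (VAT), a macrophage population was gated on Lyve1, Cd209f and Fcna, genes that have been linked to macrophages lying along blood vessels. Where these cells lay in the tissue was not measured. The members were selected on their own UMI counts (UMIs are the distinct mRNA molecules counted per cell). A member had at least 500 gene UMIs, at least 200 genes and at most 25% mitochondrial UMIs, then at least 10 UMIs of C1qa, C1qb and C1qc together, at least 1 of Adgre1 (F4/80) and at least 5 of Lyve1, Cd209f and Fcna together. Cells with any UMI of Cd3e or Cd3d (T cells), more than 1 of Cd79a (B cells) or any of Xcr1 or Clec9a (type 1 dendritic cells) were left out. The rule found 4075 members among 25198 cells, 2681 of 12474 in NW and 1394 of 12724 in ABX.

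NW and ABX were each 1 library of CD45+ cells, taken from VAT of wild-type C57BL/6 mice at 15 weeks of age and enriched by magnetic separation. NW mice drank normal water and ABX mice received antibiotics, which the labels do not name. The methods describe a mixture of ampicillin, vancomycin, streptomycin and colistin for antibiotic treatment through drinking water. The sources used here do not give how many mice each library held, so the spread between mice is unknown. No test between conditions was made, and every interval below is a 95% interval for counting error only.

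Macrophages with LYVE1, a hyaluronan receptor, are resident cells of many tissues. They take up debris and glycoproteins through scavenger and lectin receptors and are typically low in MHC class II. CD209 proteins are C-type lectins that bind glycans, and ficolin A (Fcna) is a secreted lectin of the lectin pathway of complement. TIM-4 (Timd4) binds phosphatidylserine on dying cells and is found on long-lived resident macrophages.

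Of the genes in the rule, Cd209f lies in a cluster of related genes on chromosome 8 (GRCm38, GENCODE M21). Cd209f is at chr8:4102787-4105835 on the minus strand and Cd209g at chr8:4134098-4137707 on the plus strand. Cd209a (chr8:3743397-3748984), Cd209e (chr8:3847965-3854309), Cd209d (chr8:3871824-3878555) and Cd209b (chr8:3917655-3926844) are all on the minus strand. The 300-base RefSeq promoters (250 bases before to 50 after the start, GRCm38.p6) of Cd209f and Cd209g are shown because these were the Cd209 genes with the lowest ABX to NW ratios in the members. Capitals mark their longest shared run, 180 bases. The longest run shared by any other pair of the 6 Cd209 promoters compared was 17 bases, for Cd209a and Cd209b.
Cd209f (chr8:4105715-4106014, minus strand): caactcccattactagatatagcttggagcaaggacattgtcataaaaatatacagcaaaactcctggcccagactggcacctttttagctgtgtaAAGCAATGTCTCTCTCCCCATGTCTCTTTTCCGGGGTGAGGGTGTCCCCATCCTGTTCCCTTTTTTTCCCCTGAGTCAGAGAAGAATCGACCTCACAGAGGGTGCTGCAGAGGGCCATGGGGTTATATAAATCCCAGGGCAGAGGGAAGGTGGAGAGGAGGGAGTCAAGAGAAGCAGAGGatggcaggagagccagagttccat
Cd209g (chr8:4134486-4134785, plus strand): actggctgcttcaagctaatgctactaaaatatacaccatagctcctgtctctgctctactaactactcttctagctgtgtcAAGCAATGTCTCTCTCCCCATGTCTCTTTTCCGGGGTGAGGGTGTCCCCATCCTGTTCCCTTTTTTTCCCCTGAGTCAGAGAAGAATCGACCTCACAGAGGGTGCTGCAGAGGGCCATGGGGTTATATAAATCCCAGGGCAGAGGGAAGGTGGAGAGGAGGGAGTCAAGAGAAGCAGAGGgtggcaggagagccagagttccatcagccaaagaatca
The likeness continues into the transcripts. Of the 50-base words of Cd209f transcripts, 25.9% also occur in a Cd209g transcript, and among the 7 Cd209 genes no other pair shares such a word. Reads from that stretch could be given to either gene, so their separate values are uncertain. The last 500 bases of the transcripts hold no shared word.

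The promoter of Fcna, the most abundant of the 3 genes in the members, is shown with capitals for matches on either strand to GAGGAA, a core of PU.1 sites, and TGCTGA, the core of a MAF site. PU.1 and MAF are transcription factors of macrophages. It holds 4 matches to the first and 2 to the second. Of 32851 promoters of this length, 28.3% hold GAGGAA and 19.5% hold TGCTGA. The printed windows of Cd209f and Cd209g hold neither. A match is a description and not a site.
Fcna (chr2:25627925-25628224, minus strand): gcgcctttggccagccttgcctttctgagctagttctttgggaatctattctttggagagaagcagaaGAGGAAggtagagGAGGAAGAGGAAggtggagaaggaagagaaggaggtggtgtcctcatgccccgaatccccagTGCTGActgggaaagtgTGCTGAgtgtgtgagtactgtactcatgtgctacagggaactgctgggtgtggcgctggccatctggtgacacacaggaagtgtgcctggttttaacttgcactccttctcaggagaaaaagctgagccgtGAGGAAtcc
Fcna overlaps an antisense gene, Fcnaos. Whether counting used strand is not given in the sources used here, and without it their reads cannot be told apart.

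By a rule that cuts on UMI counts and so favors deeper cells, members held more UMIs than the cells around them. Their median was 7520 UMIs and 2631 genes in NW and 6196.5 UMIs and 2331 genes in ABX. Over all cells the median was 5092 UMIs in NW and 3845.5 in ABX, so the ABX library was shallower. The members' UMIs summed to 21350205 in NW and 8950100 in ABX. The comparison population, called other macrophages here, met the same C1q, Adgre1 and exclusion cuts with 0 to 4 UMIs of the 3 genes. It had 1041 cells in NW and 1218 in ABX. Lymphocytes (1450 and 2089 cells) had at least 3 UMIs of Cd3e and Cd3d, or 3 of Cd79a with Ms4a1, with no Adgre1 and under 10 C1q UMIs. For genes that lymphocytes do not express, they gave a level for RNA that is not the cell's own. Other genes, such as Cd28, are expressed by lymphocytes themselves, and there the level is not one of stray RNA. Of the cell labels, 196 occurred in both libraries, 5 of them as members in both.

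Within the members, the 3 genes were found together. All 3 were detected in 69.8% of members in NW and in 58.1% in ABX. A UMI of a single one of them was held by 3.21% and 6.53%. Lyve1 was detected in 92.5% and 90.7% of members in the 2 libraries, Fcna in 96.9% and 94.8%, and Cd209f in 77.2% and 66.1%. In lymphocytes, Lyve1 had a UMI in 11.6% and 5.03% of cells and Fcna in 29.6% and 16.1%, at median depths of 3853.5 and 3700 UMIs, so some RNA of these genes was found in cells that should lack it. At equal depth (cells with at least 2000 UMIs, thinned to 2000, expected value), Fcna was found in 85.1% and 84.5% of members against 14.7% and 7.71% of lymphocytes. These values follow from the rule and describe the members.

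The cut falls on a slope, not in a gap. In NW, 128 macrophages of the gate had 4 UMIs and 117 had 5. In ABX, 119 had 4 and 87 had 5. Folr2 was at 639.6 UMIs per 1000000 (CPM) in NW cells with 4 UMIs and at 778 in those with 5, and at 620.0 and 712 in ABX. Timd4 was at 20.9 and 43.8 CPM in NW, and at 18.5 and 23.3 in ABX. Cells with 5 or more UMIs outside the gate numbered 1480 and 1113 in NW and ABX. Of these, 772 and 659 were stopped only by an Adgre1 count of 0, and 537 and 264 only by the T cell, B cell or dendritic cell cuts. The cuts use few genes, and members still held 112 and 162 CPM of the T cell list, against 4772 and 3400.3 in lymphocytes.

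Of the other 4 marker genes given for these cells, Folr2, Ednrb and Timd4 marked the members and Klkb1 did not. Folr2, a folate receptor of resident macrophages, was at 2052 and 1561 CPM in NW and ABX members, against 449 and 350.4 in other macrophages. Ednrb, the endothelin B receptor, was at 977 and 817 CPM against 90.2 and 107. Timd4 was at 116 and 98.8 CPM against 12.4 and 11.7. Klkb1, plasma prekallikrein, was at 75.4 and 78.8 CPM in members, 108 and 91.6 in other macrophages and 113 and 68.1 in lymphocytes. In NW its level in members was the lowest of these 3 populations.

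Markers of lymphatic endothelial cells were near 0 in the members. Lymphatic endothelial cells express Lyve1 too, and Prox1, the factor that sets their identity, had 13 and 8 UMIs over all NW and ABX members. Flt4 (VEGFR3) had 8 and 5 UMIs. The whole list of 7 lymphatic endothelial genes summed to 45 and 57 UMIs, which is 2.11 and 6.37 CPM, against 5.40 and 5.68 CPM in lymphocytes. The 13 genes of the blood endothelial list summed to 18.7 and 48.9 CPM in members, 49.5 and 111 in other macrophages and 83.4 and 124 in lymphocytes. Gata6, the factor of large peritoneal macrophages, was found in 10 NW and 11 ABX members. The 14 genes of the peritoneal macrophage list were not near 0. They summed to 287 and 307 CPM in members, 287 and 271 in other macrophages and 88.8 and 106 in lymphocytes. Of the 7 tested against other macrophages, 1 (Vsig4) was at least 2-fold higher in members in both libraries and 1 (Cd9) lower.

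**Figure D1:**
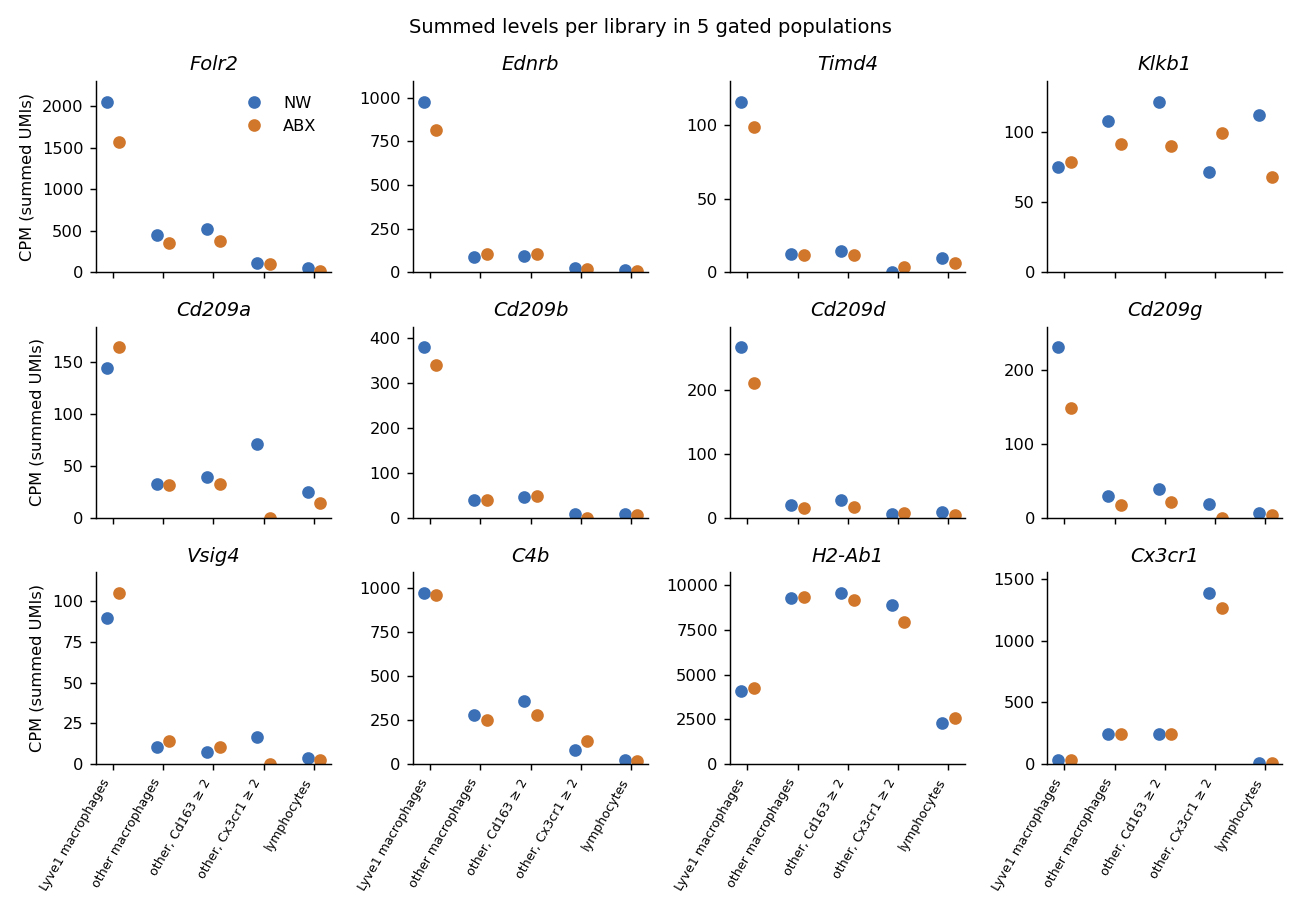
Summed level (CPM, linear axis from 0) of 12 genes in 5 gated populations, with 1 point per library (NW blue, ABX orange) and no error bars, since each is a single sum. Folr2, Ednrb, Timd4 and the Cd209 genes are highest in Lyve1 macrophages in both libraries, Klkb1 is not, and H2-Ab1 and Cx3cr1 are lower there than in other macrophages.

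The members were then set against other macrophages, gene by gene. The rule itself made this contrast, so the values are a description. Of 8951 genes with at least 100 UMIs over both populations in each library, 78 were at least 2-fold higher in members in both libraries with intervals that leave out 1 (0.871%), and 153 were at least 2-fold lower (1.71%). The genes of the rule are not counted. Nothing is read from these shares.

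By the smaller of the ratios in NW and ABX, Cd209d and Cd209b were the highest of the genes named by size. Cd209d was 12.6-fold and 13.3-fold higher in NW and ABX, at 266 and 210.5 CPM in members. Cd209b (SIGNR1), a receptor for microbial sugars, was 9.48-fold and 8.60-fold higher. Cd209g was 7.76-fold and 8.11-fold higher, and Cd209a, which dendritic cells also express, 4.45-fold and 5.18-fold. Cd209e was low, at 14.1 and 12.4 CPM in members and 2.48 and 3.35 in other macrophages. Of the 27 tested genes of the scavenger and lectin receptor list, 9 were higher and 1 (Axl, a receptor for apoptotic cells) was lower. The list's median log2 ratio was 0.39 in NW and 0.26 in ABX, against -0.04 in both for all genes. Clec10a, a galactose-type lectin, was 2.30-fold and 2.45-fold higher, and Colec12, a scavenger collectin, 3.99-fold and 5.14-fold. Mrc1 (CD206, the mannose receptor), at 1990.2 and 1933 CPM in members, was 1.38-fold and 1.20-fold higher, and Cd163, the receptor for hemoglobin bound to haptoglobin, 1.66-fold and 1.37-fold. These common markers of resident macrophages separated the populations less than the Cd209 genes did.

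Complement and coagulation genes were also among the higher ones. Of 20 tested genes of that list, 6 were higher and 1 lower. Vsig4, a complement receptor of resident macrophages, was 8.45-fold and 7.45-fold higher, at 90.0 and 105 CPM. It had a UMI in 12.8% and 14.3% of members, so its level came from a minority of them. C6, a part of the membrane attack complex, was 6.66-fold and 6.23-fold higher, and C4b, a part of the classical and lectin pathways, 3.51-fold and 3.89-fold. F13a1, a clotting factor subunit, was at 2893 and 2633 CPM in members and 2.73-fold and 2.32-fold higher. The lower gene was Itgax (CD11c).

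Of the other genes named by size, Enpep (aminopeptidase A, which cleaves angiotensin II) was 9.92-fold and 7.64-fold higher, and Ednrb 10.8-fold and 7.62-fold. Dnm1, a dynamin, was 7.78-fold and 6.47-fold higher. Mamdc2 was 5.58-fold and 7.11-fold higher, Gprc5b 5.58-fold and 7.19-fold and Sema6a, a semaphorin, 7.37-fold and 5.08-fold. Retnla (RELMα), a secreted product of alternatively activated macrophages, was at 13053 and 9791 CPM in members, 4.29-fold and 7.58-fold above other macrophages. It had a UMI in 97.5% and 87.7% of members but also in 88.8% and 65.2% of other macrophages and 77.8% and 50.8% of lymphocytes, the last at 450.3 and 234 CPM. At 2000 UMIs per cell the shares would be 87.1% and 75.2% of members and 54.6% and 30.0% of lymphocytes. The eosinophil-recruiting chemokine Ccl24 was 3.10-fold and 3.27-fold higher, and the chemokine Ccl6 2.35-fold and 2.52-fold.

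Among the lower genes were those of antigen presentation and inflammation. Of 8 tested MHC class II genes, 7 were lower. H2-Ab1 was at 4077 and 4224 CPM in members against 9311 and 9329.6 in other macrophages. Ciita, the factor that turns these genes on, was at 61.6 and 61.9 CPM against 165 and 134. Of 21 tested inflammatory genes, 11 were lower and none was at least 2-fold higher, with medians of -1.15 and -1.44. Il1b (interleukin-1β) was at 21.5 and 26.6 CPM against 324 and 282, the lowest ratio of the genes named. It was at 16.5 and 11.1 CPM in lymphocytes. Tnf was at 28.3 and 28.2 CPM against 119 and 120.4. Cx3cr1, the fractalkine receptor, was at 28.3 and 29.6 CPM against 239 and 243, and Ccr2, the receptor that brings monocytes into tissue, at 90.7 and 59.0 CPM against 350.4 and 213. Pdgfb, Lpcat2, Ccl12, Ggta1, Cadm1, Dusp2, Itga6, Sorl1 and Gpnmb filled the rest of the 12 lowest, between 4.39-fold and 6.25-fold lower in NW. Gpnmb had a UMI in only 6.53% and 2.38% of other macrophages. In those with at least 2 Cd163 UMIs it was at 14.6 and 6.19 CPM, below the members' 37.6 and 10.6. Of the 153 lower genes, 107 (69.9%) were at or above the members' level in lymphocytes in at least 1 library. Of the 78 higher ones, 4 were (5.13%). Over the 10033 genes tested between ABX and NW the share was 63.0%, so nothing is read from that of the lower genes. Of 13 tested proliferation genes, 6 were lower. None of the 15 tested iron and heme genes passed 2-fold in both libraries. Hmox1 (heme oxygenase-1) was 1.98-fold and 1.71-fold higher, and Slc40a1 (ferroportin, the iron exporter) 1.99-fold and 1.70-fold. None of the 13 general macrophage genes passed.

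**Figure D2:**
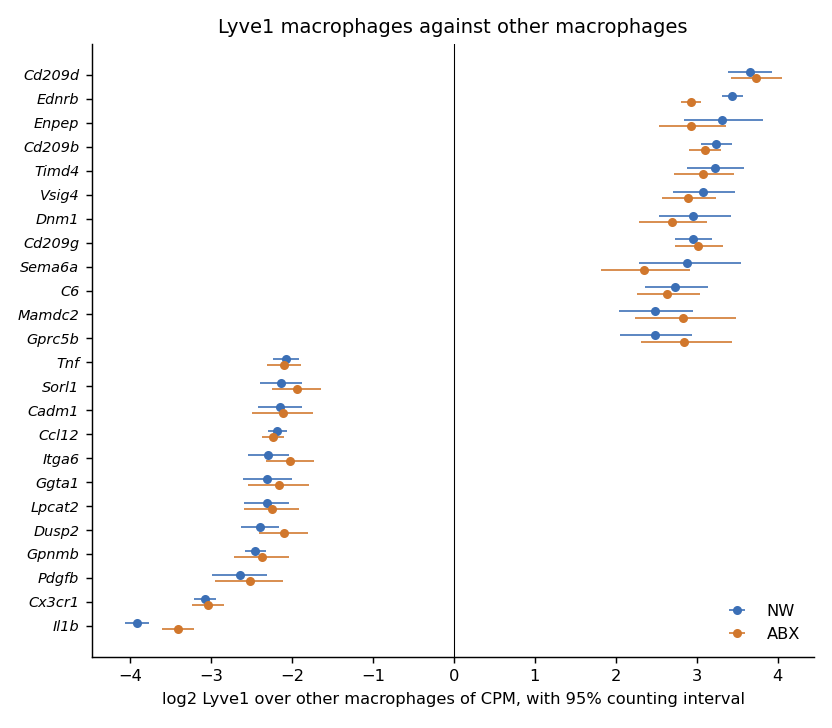
log2 ratio of CPM in Lyve1 macrophages over other macrophages for the 24 genes named by size, with 1 point and a 95% counting interval per library (NW blue, ABX orange). Genes were drawn only if at least 2-fold apart on the same side in both libraries, so their shared side follows from the choice. Cd209d is at 3.65 and 3.73 and Il1b at -3.91 and -3.41.

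Other macrophages were of more than 1 kind. Those with at least 2 Cd163 UMIs (620 cells in NW, 801 in ABX) and those with at least 2 Cx3cr1 UMIs and no Cd163 UMI (53 and 51 cells) were set beside the members. Folr2 was at 519 and 371 CPM in the first and 107 and 95.4 in the second. Cd209d was at 27.9 and 17.2 and Ednrb at 95.9 and 108 CPM in those with Cd163, both far below the members. H2-Ab1 was at 9564 and 9158 CPM in them and at 8903 and 7946 in the Cx3cr1 cells. Other macrophages with Cd163 were thus not low in MHC class II.

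The members were graded rather than uniform. Across members with 5 to 9, 10 to 19, 20 to 39 and 40 or more UMIs of the 3 genes, Timd4 was at 34.8, 44.5, 85.1 and 178 CPM in NW and at 37.0, 60.3, 101 and 178 in ABX. Ednrb went from 285 to 1369.8 CPM in NW and from 363 to 1322 in ABX, from the lowest class to the highest. Retnla went from 5195 to 17452 CPM in NW and from 3933 to 16041 in ABX. H2-Ab1 ran the other way, from 7726 to 2210.1 CPM in NW and from 7131 to 1926 in ABX. Cx3cr1 went from 68.9 to 9.12 CPM in NW, and Il1b from 57.2 to 6.79. Cd163 changed little, from 1938 to 2383 CPM in NW and from 2383 to 2447 in ABX. The classes differed in depth, with median UMIs of 5542.5 in the lowest and 9745 in the highest in NW. CPM is scaled to depth, and the part of depth in sorting cells into classes was not tested.

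**Figure D3:**
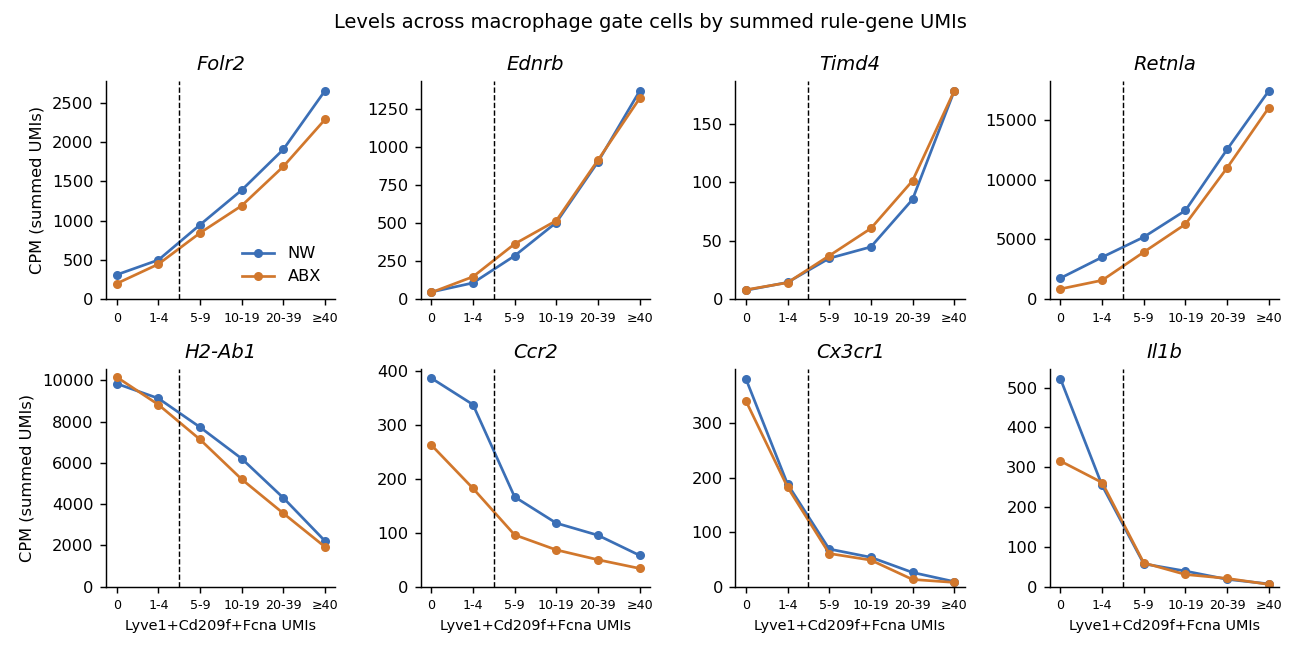
Summed level (CPM) of 8 genes in macrophage gate cells grouped by their UMIs of Lyve1, Cd209f and Fcna, with the members right of the dashed line and 1 line per library (NW blue, ABX orange). Folr2, Ednrb, Timd4 and Retnla are higher and H2-Ab1, Ccr2, Cx3cr1 and Il1b lower in each later class of members in both libraries.

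Timd4 was used to split the members as well. It had a UMI in 905 NW members, 33.8% (32.0 to 35.6), and in 395 ABX members, 28.3% (26.0 to 30.8). At 2000 UMIs per cell the shares would be 15.3% and 13.8%, against 0.965% and 0.761% of lymphocytes. Of 7733 genes compared between members with and without a Timd4 UMI, 22 were at least 1.5-fold higher in both libraries with it (0.284%) and 33 lower (0.427%). Vsig4 was at 149 and 52.8 CPM with and without a Timd4 UMI in NW, and at 179.6 and 70.8 in ABX. C6 was at 103 and 48.4 CPM in NW and at 109 and 51.1 in ABX. Cd209b, Cd209d, Colec12, C4b, Thbd, Enpep and Ednrb were also higher. H2-Eb1 was lower, at 2058 and 4432 CPM in NW and 2281 and 4391 in ABX, as were H2-Aa, H2-Ab1, H2-DMa, H2-DMb1 and Ciita. Mki67, a mark of dividing cells, was at 6.76 and 45.2 CPM in NW and at 2.48 and 15.5 in ABX. Members with a Timd4 UMI also had more UMIs, with medians of 8752 against 6893.5 in NW and 6821 against 5915 in ABX. Their median sum of Lyve1, Cd209f and Fcna was higher too, at 53 against 19 in NW and 30 against 15 in ABX. This split therefore overlaps the classes by that sum, and whether it adds to them was not tested. Fn1 and Mucl1 were the furthest apart in ABX, but 10 members held 97.7% of the Fn1 UMIs there, and a single member held 128 of 139 Mucl1 UMIs.

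The surface antibodies gave few further values, since most target lymphocyte antigens. CD44, another hyaluronan receptor, had a median of 62 and 56 antibody UMIs in NW and ABX members, 62 and 55 in other macrophages and 157 and 126 in lymphocytes. CD1d, which presents lipids, had a median of 15 and 14 in members, 10 and 10 in other macrophages and 6 and 7 in lymphocytes. NK-1.1, which macrophages should lack, had a median of 35 and 38 in members and 18 and 14 in lymphocytes. CD8b had 13 and 14 in members and 9 and 6 in lymphocytes. Antibody counts of this size in members cannot be read as surface protein.

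Members made up a smaller share of cells in ABX than in NW. Of all cells that passed the filters, 21.5% (20.8 to 22.2) were members in NW and 11.0% (10.4 to 11.5) in ABX, a log2 ratio of -0.97 (-1.06 to -0.89). Other macrophages went the other way, with 8.35% (7.87 to 8.84) in NW and 9.57% (9.07 to 10.1) in ABX. Within the macrophage gate, members were 72.0% (70.6 to 73.5) in NW and 53.4% (51.4 to 55.3) in ABX, a log2 ratio of -0.43 (-0.49 to -0.37). Cells were also thinned to 2000 UMIs, with cuts of 4 C1q UMIs and 2 UMIs of the 3 genes. Cells below 2000 UMIs were left out. Members were then 69.8% and 55.4% of the gate, a log2 ratio of -0.33. A share of CD45+ cells also depends on the numbers of all other CD45+ cells, and how shares vary between mice is unknown.

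Within the gate, the libraries differed at both ends of the scale. Macrophages with none of the 3 genes were 8.09% (7.23 to 9.01) of the gate in NW and 18.6% (17.1 to 20.2) in ABX. In NW and ABX lymphocytes, Fcna was at 79.8 and 39.6 CPM, Lyve1 at 26.5 and 10.8 and Cd209f at 22.6 and 6.48. The part of such RNA, and of the shallower ABX library, in the class with none was not tested. Members with 5 to 9 UMIs of the 3 genes were 13.1% (12.04 to 14.2) of the gate in NW and 13.1% (11.8 to 14.4) in ABX. Those with 40 or more were 27.4% (25.9 to 28.8) and 10.2% (9.09 to 11.4), a log2 ratio of -1.42 (-1.60 to -1.24). With the 3 genes scaled to depth, cells with 50 or more UMIs per 10000 were 28.3% (26.8 to 29.8) of the gate in NW and 14.3% (12.96 to 15.7) in ABX, a log2 ratio of -0.99 (-1.14 to -0.83). Cells with 10 to under 25 per 10000 had a log2 ratio of -0.03 (-0.18 to 0.11). As shares of all cells, each class of members was lower in ABX, with a log2 ratio of -0.54 (-0.74 to -0.35) for 5 to 9 UMIs, -0.59 (-0.77 to -0.41) for 10 to 19, -0.63 (-0.81 to -0.45) for 20 to 39 and -1.96 (-2.15 to -1.77) for 40 or more.

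**Figure D4:**
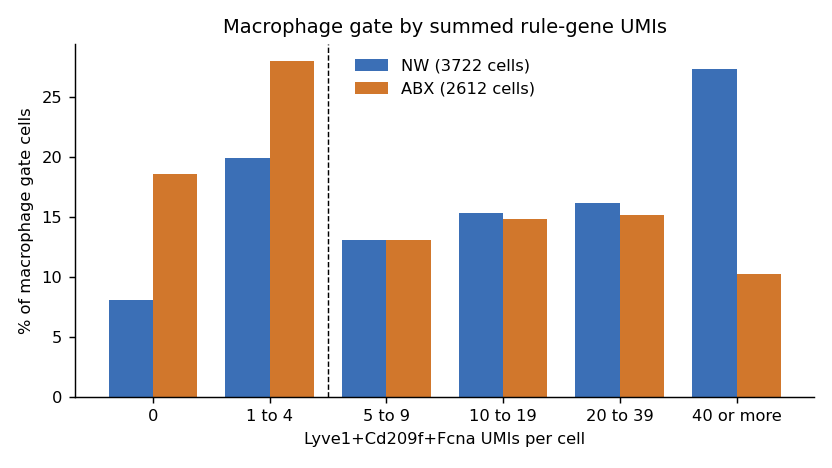
Share of macrophage gate cells (%, bars from 0) by UMIs of Lyve1, Cd209f and Fcna per cell, in NW (blue, 3722 cells) and ABX (orange, 2612 cells), with members right of the dashed line. From 5 to 39 UMIs the libraries have like shares, NW is higher at 40 or more (27.4% and 10.2%), and ABX is higher at 0 to 4.

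Over the whole macrophage gate, whose cells were not chosen on the 3 genes, Cd209f was at 763 and 348 CPM in NW and ABX (log2 -1.13, -1.18 to -1.09). Cd209g was at 189 and 98.3 CPM (-0.95, -1.03 to -0.86) and Lyve1 at 1484 and 895 (-0.73, -0.76 to -0.70). The log2 ratio was -0.67 for Cd209d, -0.65 for Folr2, -0.55 for Ednrb, -0.54 for Timd4, -0.48 for Fcna and -0.46 for Cd209b. Cd209a, at 121 and 113 CPM, and Vsig4, at 73.4 and 69.9 CPM, had ratios of -0.10 and -0.07. H2-Ab1 and H2-Eb1 had ratios of 0.26 and 0.32, and Il1b of 0.57. In summed levels such as these, fewer cells of a type and less RNA per cell cannot be told apart.

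Within the members, few genes differed between ABX and NW by this measure. Of 10033 genes that reached 100 UMIs in the members of NW and ABX together, 226 were at least 1.5-fold higher in ABX (2.25%) and 161 at least 1.5-fold lower (1.6%), each with an interval that leaves out 1, and the median log2 ratio was -0.00. Of the 30 tested genes of the Lyve1 macrophage list, none was at least 1.5-fold higher and 1 (Il10, with 84 and 17 UMIs) was lower, with a median of -0.14. Il10 had a UMI in 38 and 11 members, at 3.93 and 1.90 CPM, and lymphocytes held 19.7 and 6.48 CPM of it. None of the 8 tested MHC class II genes passed in either direction, nor any of the 10 receptors for microbial and other metabolites, 28 phagocytosis and Fc receptor genes or 13 general macrophage genes. Vsig4 had a log2 ratio of 0.22, C6 of -0.01 and C4b of -0.02.

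The Cd209 genes spread out. Cd209f was at 949.7 and 547 CPM in NW and ABX members (-0.80, -0.84 to -0.75), and Cd209g at 231 and 149 (-0.64, -0.72 to -0.55). Reads from their shared transcript stretch could be given to either gene, and a link of the shared promoter run to these values was not tested. Cd209d had a log2 ratio of -0.34, -0.41 to -0.26, Cd209b of -0.15, -0.21 to -0.09 and Cd209a of 0.19, 0.10 to 0.28. These intervals did not reach those of Cd209f and Cd209g, but they cover counting error only. Differences between the genes were not tested. In other macrophages Cd209g was at 29.8 and 18.4 CPM. Among members with 40 or more UMIs of the 3 genes, Cd209f was at 1429 CPM in NW and 974 in ABX, Fcna at 3474 and 3809, and Cd209g at 322 and 213. Over all members, Lyve1 had a log2 ratio of -0.40, Fcna of -0.15, Folr2 of -0.39, Ednrb of -0.26 and Timd4 of -0.23. The cut on the 3 genes limits how far their own levels can move in members.

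A few early response genes were lower in ABX. Egr1, which cells switch on within minutes of stimulation or handling, was at 1121 and 511 CPM in NW and ABX members (-1.13, -1.18 to -1.09), with a UMI in 75.4% and 52.2% of them. At 2000 UMIs per cell the shares would be 56.3% and 36.3%. Egr1 was at 1717 and 1317 CPM in other macrophages and at 148 and 85.1 in lymphocytes, lower in ABX in both. Egr2 (-1.38) and Nr4a1 (-0.60) were the other 2 of 33 tested early response and heat shock genes that passed, both lower, and the list's median was -0.18. The tissue was digested with enzymes while warm, and the part of handling in these values was not tested. Of 16 tested proliferation genes, 8 were lower and none was higher, Mki67 being at 30.3 and 11.4 CPM. Members with at least 10 UMIs of this list were 11.0% in NW and 4.59% in ABX, a share that depth also moves. Ccr2 was at 90.7 and 59.0 CPM (-0.62), and lymphocytes held 659.8 and 345 CPM of it. Retnla had a log2 ratio of -0.41 in members. In other macrophages it was at 3046 and 1292 CPM (-1.24), and it was lower in ABX in lymphocytes as well.

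The 10 genes with the lowest ratios were Mmp12, Ighg3, Igha, Cenpe, Gpnmb, Iglc3, Ube2c, Arg1, Tppp3 and Rnase2a. For several, few cells held most UMIs. Mmp12, macrophage elastase, had 1412 and 12 UMIs in NW and ABX members (-5.62, -6.58 to -4.82), but 10 members held 93.3% of the NW UMIs, and 95 and 8 members had any. Mmp12 was lower in ABX outside the members too, at 60.2 and 1.41 CPM in other macrophages and 5.69 and 0.399 in lymphocytes. Without members holding at least 2 UMIs of any gene of the endothelial, fibroblast or other immune cell lists, which left 447 and 248 members, its ratio was -0.97 and that of Igha -0.63. Gpnmb and Arg1 had 84.7% and 81.0% of their NW UMIs in 10 members. Tppp3 was found in 386 and 62 members, at 34.6 and 11.6 CPM (-1.57, -1.89 to -1.28), with 12.7% of its NW UMIs in 10 members. It was lower in ABX in other macrophages too. There it was at 21.6 and 3.70 CPM in cells with none of the 3 genes, and at 18.8 and 3.14 in those with 1 to 4 UMIs. Rnase2a, a ribonuclease, was found in 229 and 58 members, at 29.7 and 10.1 CPM, with 29.5%. Ighg3, Igha and Iglc3 are immunoglobulin genes of B and plasma cells. Iglc3 was at 20.8 and 6.48 CPM in members and at 847 and 790.1 in lymphocytes.

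The 10 genes with the highest ratios were Dcn, Col1a2, Fmo2, Mgp, Ogn, Inmt, Serping1, Col1a1, Col3a1 and Bgn. Collagens, decorin, osteoglycin and biglycan are matrix products of fibroblasts. Dcn was at 13.4 and 157 CPM in NW and ABX members (3.55, 3.37 to 3.74), and 10 members held 75.02% of its ABX UMIs. All 7 tested fibroblast genes were higher in ABX, and the list of 10 summed to 87.9 and 424 CPM in members, 166 and 202 in other macrophages and 27.4 and 52.9 in lymphocytes. Of the 3797 fibroblast UMIs in ABX members, 2638 were in 14 members. Without members holding at least 10 of them, Dcn had a log2 ratio of 1.88 and Col3a1 of 0.78. Without members holding 2 UMIs of any gene of those other cell lists, Dcn had 1.34 and Col1a1 0.61. In other macrophages the ratio of Dcn was 1.03. Of 9 tested B cell genes, 6 were higher in ABX members and none lower. The B cell list was at 559 and 655 CPM in members and 17703 and 24033 in lymphocytes. Of the 226 higher genes, 134 were at or above the members' level in lymphocytes in at least 1 library (59.3%), as were 102 of the 161 lower ones (63.4%) and 63.0% of all genes tested.

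Some other genes were spread over many members. Clec4n (dectin-2, which binds fungal mannans) was at 51.9 and 104 CPM in NW and ABX members (1.00, 0.87 to 1.13), with UMIs in 577 and 389 members, and at 2.63 and 1.69 CPM in lymphocytes. Cd28, a co-stimulatory receptor of T cells, was at 22.4 and 47.4 CPM (1.08), with UMIs in 312 and 278 members, and at 166 and 116 CPM in lymphocytes. Fabp4, a fatty acid carrier abundant in adipocytes, was at 66.6 and 154 CPM (1.20), and at 17.5 and 107 CPM in lymphocytes, higher in ABX in both. Lpl (lipoprotein lipase) had a log2 ratio of -0.63 and Fabp5 of -0.63. Of 30 tested lipid handling genes, 3 were higher and 4 lower. Of 17 tested iron and heme genes, none was higher and 2 zinc and iron transporters were lower, Slc39a14 at 8.62 and 5.25 CPM (-0.71, -1.21 to -0.25) and Slc39a8 at 5.53 and 3.46 (-0.67, -1.29 to -0.09).

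**Figure D5:**
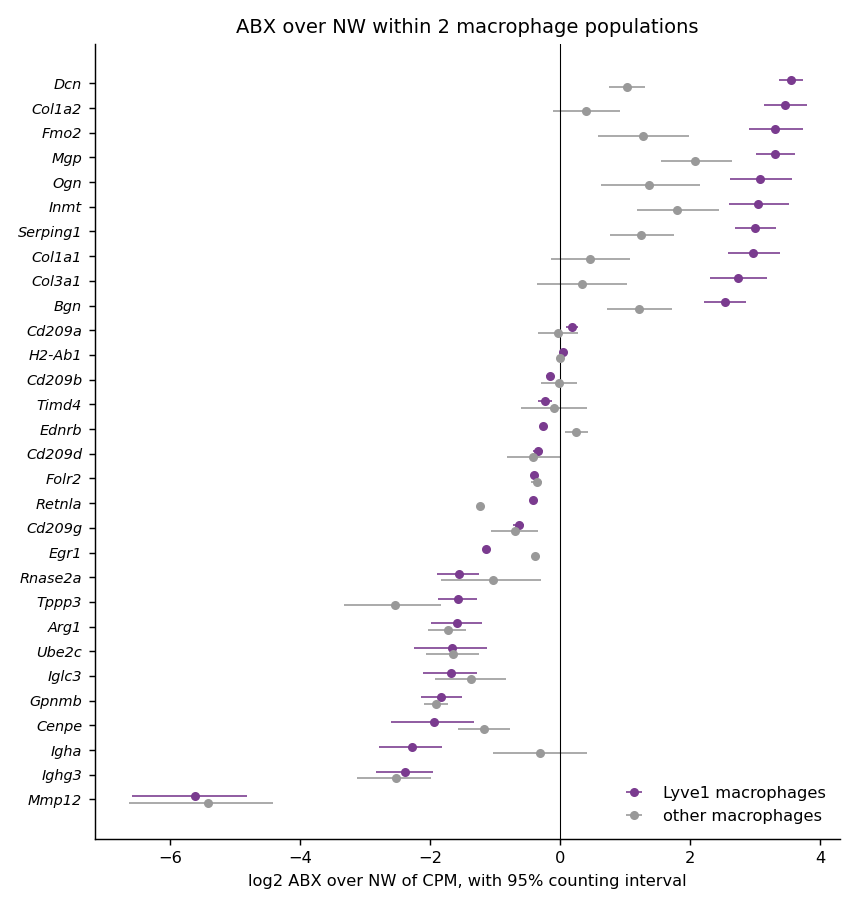
log2 ratio of CPM in ABX over NW with its 95% counting interval, in Lyve1 macrophages (purple) and other macrophages (grey), for the 20 genes named by size and 10 genes described in the text. Dcn (3.55) and the other matrix genes are at the top and Mmp12 (-5.62) at the bottom, while Cd209a, Cd209b, Timd4 and H2-Ab1 lie near 0.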

How the data were processed

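The authors deposited unnormalized UMI counts per gene and antibody for each cell barcode, made with the BD Rhapsody WTA Analysis Pipeline version 1.8 on GRCm38 (mm10). The submitters' processing notes also name R 3.6.0 and Seurat 3.0.1. The counts hold 10 antibodies, and the methods list fewer.

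Cells were filtered and gated as stated, and doublets were kept. UMIs of a population were summed per library and given as CPM of its gene UMIs. Ratios carry exact Poisson intervals and shares exact Clopper-Pearson intervals, at 95% and for counting error only. With 1 library per condition, no p-value was computed. Genes needed 100 UMIs, and genes named by size 200: the 10 highest and 10 lowest called genes between ABX and NW, and the 12 highest and 12 lowest between macrophage populations by the smaller of the libraries' ratios. Genes of the gating rule, its markers and the gene lists were named too, and unnamed gene models, ribosomal and mitochondrial genes were not. Mucl1 and the genes of the Timd4 split were chosen after their values were seen, as was that split. The members and gene lists were chosen with earlier results of these data known. Python 3.11.15, numpy 2.4.6 and scipy 1.17.1 were used. Alternatives were other cuts, depth thinning, scalings, count minimums and left-out cells or genes.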

Additional observations from a re-analysis of the deposited data

Results flagged for a closer look

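These genes were at least 1.5-fold apart between ABX and NW in opposite directions in the 2 macrophage populations, and the difference between populations was not tested. Ctsk, a collagen-degrading protease, had a log2 ratio of ABX over NW of 0.81 in Lyve1 macrophages and of -3.19 in other macrophages. Fn1, fibronectin, had ratios of 1.11 and -2.04, and 6 ABX members held 1450 of its 1501 UMIs. Gbp2, an interferon-induced GTPase, had ratios of -0.68 and 0.67. Saa3, an acute phase protein, had ratios of -1.05 and 3.33, with 96.6% of its NW UMIs in 10 members. Slpi, a protease inhibitor, had ratios of -0.74 and 2.36, with 92.5%. Among the barcodes that the filters removed, 7 of 5188 in NW and 5 of 5061 in ABX met every gene cut for members.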

How the results depend on the processing

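The direction of both shares held under every alternative run. The log2 ratio of the share among all cells was -0.88 with at least 3 UMIs of the 3 genes, -1.09 with at least 10, -0.75 with cells thinned to 2000 UMIs, -0.84 with at most 10% mitochondrial UMIs and -0.78 without the Adgre1 cut. The share within the gate had -0.34, -0.55, -0.33 and -0.37 under the first 4 of these. Thinning left out cells below 2000 UMIs, also from the denominators. Counts of genes moved more. Against 226 higher in ABX, there were 80 with thinned cells, 594 with a minimum of 20 UMIs, 34 with 500, 76 without cells holding at least 2 UMIs of any listed gene of other cell types (447 and 248 members left) and 92 without genes at the lymphocytes' level. Against 161 lower, there were 289 with 20 UMIs, 42 with 500 and 59 without lymphocyte-level genes. Against 78 higher than in other macrophages, there were 49 with 500 UMIs and 36 without cells holding listed genes. There were 128 against other macrophages with none of the 3 genes. Against 153 lower, there were 70 with thinned cells, 51 with 500 UMIs, 35 without cells holding listed genes and 46 without lymphocyte-level genes. Fewer genes are tested at a higher minimum, and the other causes were not tested. Arg1 reversed, to 1.84, without cells holding listed genes, where Fmo2 gave no value, Mmp12 was at -0.97, Igha at -0.63 and Col1a1 at 0.61. Cd209a, on the dendritic cell list, was found in 42.5% of NW members, so cells holding listed genes need not be mixtures. Of the 20 genes named by size between ABX and NW, each under up to 8 alternatives, 71 values moved by more than the counting interval and 87 did not. The alternatives on lymphocyte-level genes, fibroblast UMIs and genes held by few cells were chosen after seeing the data. No paired analysis was possible because each condition was 1 library, and for the same reason no replicate could be left out.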

Other observations

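Members were also split at the median share of MHC class II UMIs, without a test. Timd4 was at 60.1 CPM above and 160.3 at or below the median in NW, and at 57.7 and 134 in ABX. Vsig4 was at 30.2 and 137 CPM in NW and at 42.5 and 159 in ABX, while Ccr2 was at 141 and 51.4 in NW and at 87.2 and 34.7 in ABX. Cd163 was at 2296 and 2285 CPM in NW. Members at or below the median were deeper, with median UMIs of 8603 against 6766 in NW and 6717 against 5738 in ABX. Their median sum of Lyve1, Cd209f and Fcna was 49 against 16 in NW and 26 against 13 in ABX. The part of either in these values was not tested. Hgf, hepatocyte growth factor, was at 5.85 and 9.39 CPM in NW and ABX members (0.68, 0.26 to 1.09), and Cxcl13, the chemokine that draws B cells, at 63.7 and 33.6 (-0.92, -1.11 to -0.74). Of 32 tested interferon-stimulated genes, 2 were higher in ABX and 1 lower, with a median of -0.03, and none of 18 glycolysis and hypoxia genes passed.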
